A study of Mus musculus with 6 samples.

Results

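The genes described here are 10 transcripts tied to hypoxia-inducible factor (HIF) and to the removal of mitochondria: Bnip3, Bnip3l, Egln1, Egln3, Hif1a, Pdk1, Ankrd37, Ddit4, Car9 and Adm. They were chosen by symbol, and each matched 1 row among the 20475 genes of the table. The measurements were RNA-seq reads per gene in 6 libraries of NIH3T3, an established mouse embryonic fibroblast line, at passage 5. Of these, 2 libraries came from cells given extracellular vesicles (EVs, membrane-bound particles released by cells) of the human line MDA-MB-231, derived from an aggressive triple-negative breast tumour. Another 2 came from cells given EVs of MCF10A, human mammary epithelial cells that form no tumours, and 2 from cells given PBS, the buffer that carried the EVs. RNA was taken 48 h after treatment in all groups, and the labels name no genetic change in any of them. The labels do not say that replicates were separate cultures, so p-values measure the spread between these libraries only.

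HIF is a dimer of an oxygen-sensitive alpha subunit, such as the product of Hif1a, and the stable partner encoded by Arnt. With oxygen present, the EGLN prolyl hydroxylases mark the alpha subunit for capture by the VHL ubiquitin ligase and for degradation. With little oxygen the dimer persists and binds short sites in its target genes, among them Egln1 and Egln3 themselves, which makes a feedback loop. In mouse embryonic fibroblasts HIF is known to lower mitochondrial respiration through Pdk1, which blocks pyruvate entry into the citric acid cycle, and through Bnip3, which recruits the autophagy machinery to mitochondria. The comparisons ask how these transcripts differ in fibroblasts that received vesicles of either breast line, and whether the vesicles of the cancer line differ from those of MCF10A.

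Promoter sequence is shown for 5 of the genes because they moved together or, for Adm, the opposite way, and because the HIF dimer binds a short core that can be looked up in them. RefSeq start sites of build GRCm38.p6 gave windows of 300 bases, from 250 before to 50 after the start, for 9 of the 10 genes (not for Bnip3l). Capitals mark the HIF core in its forms ACGTG and GCGTG and their reverse complements CACGT and CACGC. The windows lie at chr7:138909457-138909756 on the minus strand (Bnip3), chr8:124949205-124949504 on the minus strand (Egln1) and chr2:71872974-71873273 on the plus strand (Pdk1, upstream start). Those of Ddit4 and Adm lie at chr10:59951721-59952020 on the minus strand and chr7:110627407-110627706 on the plus strand. All are written along the direction of transcription.
Bnip3: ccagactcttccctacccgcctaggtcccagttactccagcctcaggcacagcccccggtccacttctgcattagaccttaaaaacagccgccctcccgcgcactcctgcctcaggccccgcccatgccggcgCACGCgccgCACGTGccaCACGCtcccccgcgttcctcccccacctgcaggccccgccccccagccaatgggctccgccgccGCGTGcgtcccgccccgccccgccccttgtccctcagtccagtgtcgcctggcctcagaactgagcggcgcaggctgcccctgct
Egln1: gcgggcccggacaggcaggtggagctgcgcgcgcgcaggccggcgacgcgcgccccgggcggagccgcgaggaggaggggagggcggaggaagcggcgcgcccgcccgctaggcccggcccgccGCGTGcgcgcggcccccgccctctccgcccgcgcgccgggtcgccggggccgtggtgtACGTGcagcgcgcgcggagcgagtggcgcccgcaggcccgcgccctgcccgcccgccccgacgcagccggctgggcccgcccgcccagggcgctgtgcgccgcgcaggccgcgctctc
Pdk1: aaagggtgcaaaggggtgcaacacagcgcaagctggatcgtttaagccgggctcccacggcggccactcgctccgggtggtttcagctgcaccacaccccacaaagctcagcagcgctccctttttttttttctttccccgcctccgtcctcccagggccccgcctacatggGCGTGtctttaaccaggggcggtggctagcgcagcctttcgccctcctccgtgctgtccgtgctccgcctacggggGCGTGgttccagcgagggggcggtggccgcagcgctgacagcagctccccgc
Ddit4: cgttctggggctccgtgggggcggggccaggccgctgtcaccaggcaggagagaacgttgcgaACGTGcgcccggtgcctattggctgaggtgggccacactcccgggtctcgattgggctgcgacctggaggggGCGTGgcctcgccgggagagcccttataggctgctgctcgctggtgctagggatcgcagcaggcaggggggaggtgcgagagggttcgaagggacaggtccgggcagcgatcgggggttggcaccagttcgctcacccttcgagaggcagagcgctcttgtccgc
Adm: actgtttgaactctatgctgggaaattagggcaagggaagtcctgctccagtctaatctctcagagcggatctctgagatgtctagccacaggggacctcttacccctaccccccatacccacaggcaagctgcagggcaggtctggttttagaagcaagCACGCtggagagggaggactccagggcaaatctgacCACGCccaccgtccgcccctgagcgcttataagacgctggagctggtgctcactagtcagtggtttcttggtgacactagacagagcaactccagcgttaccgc

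Bnip3 held 5 matches, of which ACGTG and CACGT overlap in 1 palindrome at -108 to -103 from the start, with CACGC at -117 and -99 and GCGTG at -35. Egln1 held GCGTG at -126 and ACGTG at -68, and Ddit4 held ACGTG at -187 and GCGTG at -115. Pdk1 held GCGTG at -78 and -2, and its second start site held no match. Adm held CACGC at -90 and -54. Of the 10 windows of these genes 9 held a match, against 43.8% of all 32851 windows (19.6% with the ACGTG form and 32.4% with the GCGTG form, either strand). A match of these letters describes the sequence and is not evidence of a bound site. The genes were picked for their ties to HIF, so a high share of windows with the core was likely beforehand. The windows of all genes were not matched to these in base content, so nothing is concluded from the difference in shares.

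Levels are given as normalised reads, reads adjusted by the authors to a common library size, in replicates 1 and 2 of a group, and mean ± SD with n = 2 libraries. Changes are differences of log2(normalised reads + 1), which understates the change of weakly detected genes. Rose and fell mean a Benjamini-Hochberg adjusted p under 0.05 over 15025 genes by limma's moderated test. Libraries held 22451173 to 29315530 gene reads, and 3 reads, the approximate upper limit that a count of 0 allows (counting error only), equalled 0.102 to 0.134 CPM, the reads of a gene scaled by the library total. All 14 fibroblast markers had reads and summed to 18126 to 18244 CPM with MDA-MB-231 EVs, 18180 to 18732 with MCF10A EVs and 20793 to 20847 with PBS. Epithelial markers summed to 1.29 to 2.0 CPM over all groups, with Epcam, Krt5, Krt18 and Esrp1 at 0 reads. Among them Cdh1 rose in both EV groups at very low levels. It had 4.06 and 2.16 normalised reads with MDA-MB-231 EVs, 2.16 and 2.54 with MCF10A EVs, and 0 and 0 with PBS. The 7 macrophage and leukocyte markers in the table summed to 41.5 to 43.6 CPM with MDA-MB-231 EVs, 71.7 to 73.8 with MCF10A EVs and 120.4 to 124 with PBS, with Emr1 and Tyrobp at 0 reads and Ptprc at no more than 1 read. Endothelial markers summed to 6.59 to 8.02 CPM with MDA-MB-231 EVs, 12.01 to 13.9 with MCF10A EVs and 14.1 to 14.4 with PBS. Most of that sum was Cdh5, at 160, 304 and 347 normalised reads in that order, which fell with MDA-MB-231 EVs only. Esam went the other way at low levels, with 7.30, 5.72 and 1.49 normalised reads, and rose in both EV groups. Most of the macrophage and leukocyte sum was Cd14, at 977, 1711 and 2992 normalised reads with MDA-MB-231 EVs, MCF10A EVs and PBS. Cd14 fell by 1.61 on the log2 scale with MDA-MB-231 EVs and by 0.81 with MCF10A EVs. Csf1r stood at 27.6, 80.8 and 78.5 in the same order and fell with MDA-MB-231 EVs only, so the markers did not all follow Cd14. Of the 14 fibroblast markers 9 fell and 1 rose in each EV group against PBS. That is 71.4% called, beside 34.8% of all genes with MDA-MB-231 EVs and 31.7% with MCF10A EVs. Dcn fell by 0.91 with MDA-MB-231 EVs and by 0.46 with MCF10A EVs. Col3a1 rose by 0.46 with MDA-MB-231 EVs and by 0.80 with MCF10A EVs. The part of these marker differences in the results was not tested. In bulk libraries, fewer cells with a transcript and less of it per cell cannot be told apart.

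Most of the genes fell with both kinds of vesicle, and Adm rose with both. With MDA-MB-231 EVs, 6 of 10 fell, 1 rose and 3 (Egln3, Ankrd37 and Car9) did not pass the test, beside 34.8% of all genes called (16.9% lower and 17.9% higher). With MCF10A EVs, 8 of 10 fell, 1 rose and Car9 did not pass, beside 31.7% of all genes called (14.6% lower and 17.1% higher). The median log2 change of the 10 genes was -0.38 with MDA-MB-231 EVs and -0.75 with MCF10A EVs, beside 0.01 and 0.0001 over all genes tested. The EV comparisons share their PBS libraries, so their values are set side by side and not correlated. Libraries of the EV group and of PBS did not overlap for 9 of 10 genes in either comparison, beside 65.9% of all genes with MDA-MB-231 EVs and 64.2% with MCF10A EVs. Scaled by library totals, 67.8% of called genes were higher with MDA-MB-231 EVs in place of 51.4%, and 61.7% in place of 40.4% were higher with MDA-MB-231 EVs than with MCF10A EVs. The counts of these 10 genes against PBS were the same under that scaling, which shifted the median of all genes by less than 0.1.

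**Figure D1:**
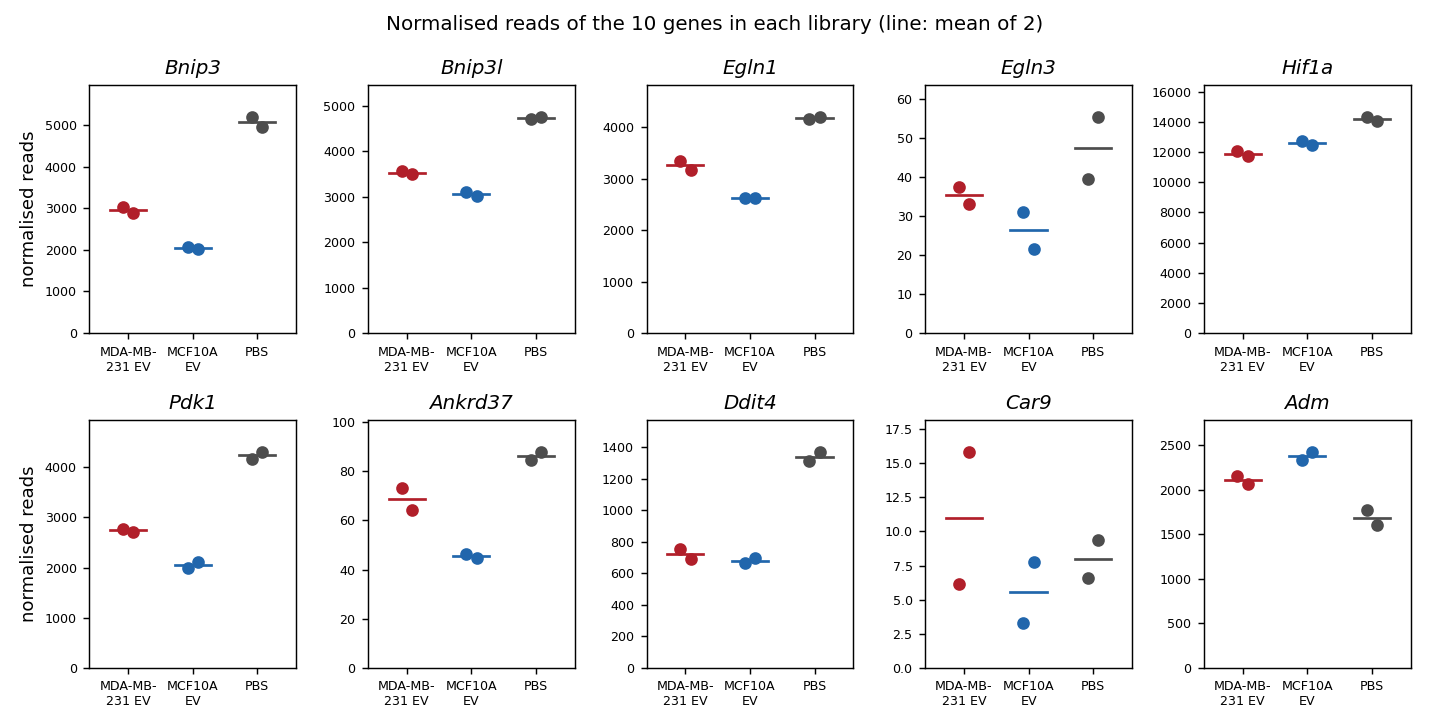
Normalised reads (y axis, from 0, a scale for each gene) of the 10 genes in each of the 6 libraries, by group on the x axis, where points are libraries and lines the mean of 2. Bnip3 stands at 2882 to 3021 with MDA-MB-231 EVs, 2023 to 2077 with MCF10A EVs and 4944 to 5185 with PBS, and Adm is the gene whose PBS libraries are lowest.

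Both mitophagy receptors fell with both kinds of vesicle. Bnip3, on chromosome 7, encodes an outer mitochondrial membrane protein that binds LC3-family proteins and so ties mitochondria to forming autophagosomes. Bnip3 had 3021 and 2882 normalised reads with MDA-MB-231 EVs, 2077 and 2023 with MCF10A EVs, and 5185 and 4944 with PBS. All 4 EV libraries lay below both PBS libraries, and the MCF10A EV libraries were lowest. The log2 change against PBS was -0.78 ± 0.037 (SE) with MDA-MB-231 EVs, a 1.72-fold fall (limma, adjusted p = 6.0e-10). With MCF10A EVs it was -1.30 ± 0.037, a 2.47-fold fall (limma, adjusted p = 7.6e-12). That fall ranked 9 from the largest among the 10104 genes averaging 5 CPM or more, and the fall with MDA-MB-231 EVs ranked 155.

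Bnip3l, on chromosome 14, encodes the related receptor NIX, known for clearing mitochondria from maturing red blood cells. It had 3555 and 3497 normalised reads with MDA-MB-231 EVs, 3097 and 3014 with MCF10A EVs, and 4703 and 4745 with PBS. The groups did not overlap and stood in the same order as for Bnip3. Bnip3l fell by 0.42 ± 0.032 on the log2 scale with MDA-MB-231 EVs and by 0.63 ± 0.032 with MCF10A EVs (limma, adjusted p = 8.7e-08 and 3.4e-09). The ratio of Bnip3 to Bnip3l reads was 0.85 and 0.82 with MDA-MB-231 EVs, 0.67 and 0.67 with MCF10A EVs, and 1.10 and 1.04 with PBS. Bnip3 was thus the smaller of the pair in reads in every EV library and the larger in both PBS libraries, while per kilobase of exon it was the larger in all 6. A pseudogene named Bnip3l-ps is annotated and could share reads with Bnip3l, and the Bnip3 exons overlap the antisense gene Gm45507.

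Of the oxygen sensors, Egln1 fell in both comparisons, and Egln3 passed the test with MCF10A EVs. Egln1, on chromosome 8, encodes PHD2, the main HIF prolyl hydroxylase in oxygenated cells. Its normalised reads were 3354 and 3177 with MDA-MB-231 EVs, 2634 and 2634 with MCF10A EVs, and 4159 and 4194 with PBS, again without overlap. Egln1 fell 1.28-fold with MDA-MB-231 EVs (log2 -0.36 ± 0.035, limma, adjusted p = 1.1e-06) and 1.59-fold with MCF10A EVs (log2 -0.66 ± 0.035, limma, adjusted p = 4.6e-09). Egln2, which encodes the related PHD1, and Hif1an, which encodes the asparaginyl hydroxylase FIH, did not pass the test in either comparison, with log2 changes of 0.10 and 0.03 for Egln2 and -0.03 and 0.07 for Hif1an.

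Egln3, on chromosome 12, encodes PHD3, a hydroxylase known for strong induction by hypoxia, and was weakly detected here. It had 37.6 and 33.1 normalised reads with MDA-MB-231 EVs, 31.0 and 21.7 with MCF10A EVs, and 39.4 and 55.4 with PBS, from 26 to 59 reads in a library. The MDA-MB-231 EV libraries lay below both PBS libraries, but the nearest pair of libraries differed by less than the PBS libraries did from each other. Its log2 change was -0.40 with MDA-MB-231 EVs (95% interval -0.97 to 0.18, limma, adjusted p = 0.290), so a fall of the size seen for Egln1 lies within the interval. With MCF10A EVs it fell by 0.83 ± 0.27 (limma, adjusted p = 0.0288). That call was lost without MCF10A EV replicate 2 (log2 -0.58) and without PBS replicate 2 (log2 -0.59), and with DESeq2 (adjusted p = 0.128).

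Hif1a itself, on chromosome 12, was the most abundant of the 10 in reads and changed least among those that fell. HIF activity is set mainly by the stability of its protein, which these data do not measure. Hif1a had 12046 and 11728 normalised reads with MDA-MB-231 EVs, 12718 and 12446 with MCF10A EVs, and 14307 and 14079 with PBS. Here the MDA-MB-231 EV libraries were lowest, unlike for Bnip3, Bnip3l and Egln1. Hif1a fell 1.19-fold with MDA-MB-231 EVs (log2 -0.26 ± 0.027, limma, adjusted p = 2.9e-06) and 1.13-fold with MCF10A EVs (log2 -0.17 ± 0.027, limma, adjusted p = 1.9e-04). A predicted protein-coding gene, Gm49321, and the antisense gene Gm15283 overlap its exons.

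Among the targets, Pdk1 followed Bnip3 closely. Pdk1, on chromosome 2, encodes a kinase that inactivates pyruvate dehydrogenase. It had 2776 and 2707 normalised reads with MDA-MB-231 EVs, 1983 and 2108 with MCF10A EVs, and 4171 and 4305 with PBS. The groups did not overlap, and the MCF10A EV libraries held less than the MDA-MB-231 EV libraries. Pdk1 fell 1.55-fold with MDA-MB-231 EVs and 2.07-fold with MCF10A EVs (limma, adjusted p = 8.3e-09 and 8.9e-11). Of the other kinases of the complex, Pdk2 fell to 171 ± 5.70 with MDA-MB-231 EVs and 147 ± 2.94 with MCF10A EVs, against 270.3 ± 4.54 with PBS. Pdk3 and Pdk4 did not pass the test against PBS, with log2 changes of -0.11 and -0.02 with MDA-MB-231 EVs and -0.10 and -0.12 with MCF10A EVs.

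Ddit4, on chromosome 10, encodes REDD1, an inhibitor of the growth kinase complex mTORC1 that other stress factors besides HIF also induce. Normalised reads were 753 and 692 with MDA-MB-231 EVs, 664 and 696 with MCF10A EVs, and 1310.3 and 1369 with PBS. Both EV groups were clearly below PBS, and they overlapped each other. The fall was 1.85-fold with MDA-MB-231 EVs (log2 -0.89 ± 0.057, limma, adjusted p = 1.5e-08) and 1.97-fold with MCF10A EVs (log2 -0.98 ± 0.057, limma, adjusted p = 1.4e-08). With MDA-MB-231 EVs this was the largest fall of the 10 genes.

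Ankrd37, on chromosome 8, encodes an ankyrin-repeat protein known as a HIF target. It had 73.1 and 64.1 normalised reads with MDA-MB-231 EVs, 46.2 and 44.9 with MCF10A EVs, and 84.8 and 87.9 with PBS. With MCF10A EVs it fell 1.88-fold (log2 -0.91 ± 0.18, limma, adjusted p = 0.00149), and with MDA-MB-231 EVs the change was -0.33 (95% interval -0.73 to 0.06, limma, adjusted p = 0.193). Its exons overlap those of Ufsp2 and Lrp2bp on the opposite strand, and since the strand counted is not given in the sources used here, their reads may not be fully separate. Ufsp2 stood at 1151 ± 54.4 with MDA-MB-231 EVs, 1227 ± 6.20 with MCF10A EVs and 1386 ± 45.5 with PBS. It fell by 0.27 with MDA-MB-231 EVs and by 0.18 with MCF10A EVs on the log2 scale (limma, adjusted p = 3.9e-04 and 0.0110). Its EV groups did not pass the test against each other (limma, adjusted p = 0.219). Lrp2bp, at 17.2 ± 7.07, 12.9 ± 2.91 and 18.7 ± 4.11 normalised reads in the same order, passed in no comparison. The part of shared reads in the Ankrd37 values was not tested.

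Car9, on chromosome 4, encodes a cell-surface carbonic anhydrase that is a standard hypoxia marker in tumours. It had 6 and 15 reads with MDA-MB-231 EVs, 3 and 9 with MCF10A EVs, and 6 and 10 with PBS before normalisation. The groups overlapped, and the intervals of its log2 change, -0.77 to 1.38 with MDA-MB-231 EVs and -1.61 to 0.55 with MCF10A EVs, left room for large changes either way. A change in Car9 was not detectable at this depth, and its exons overlap the antisense gene Gm12454.

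Adm moved the other way and was higher in every EV library than in PBS. Adm, on chromosome 7, encodes adrenomedullin, a secreted vasodilator peptide and a known HIF target. It had 2149 and 2065 normalised reads with MDA-MB-231 EVs, 2333 and 2421 with MCF10A EVs, and 1769 and 1597 with PBS. All EV libraries lay above both PBS libraries, and the MCF10A EV libraries were highest. Adm rose 1.25-fold with MDA-MB-231 EVs (log2 0.33 ± 0.047, limma, adjusted p = 6.4e-05) and 1.41-fold with MCF10A EVs (log2 0.50 ± 0.047, limma, adjusted p = 1.8e-06). The rise with MCF10A EVs ranked 188 from the largest among the 10104 better detected genes, and the rise with MDA-MB-231 EVs ranked 890.

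**Figure D2:**
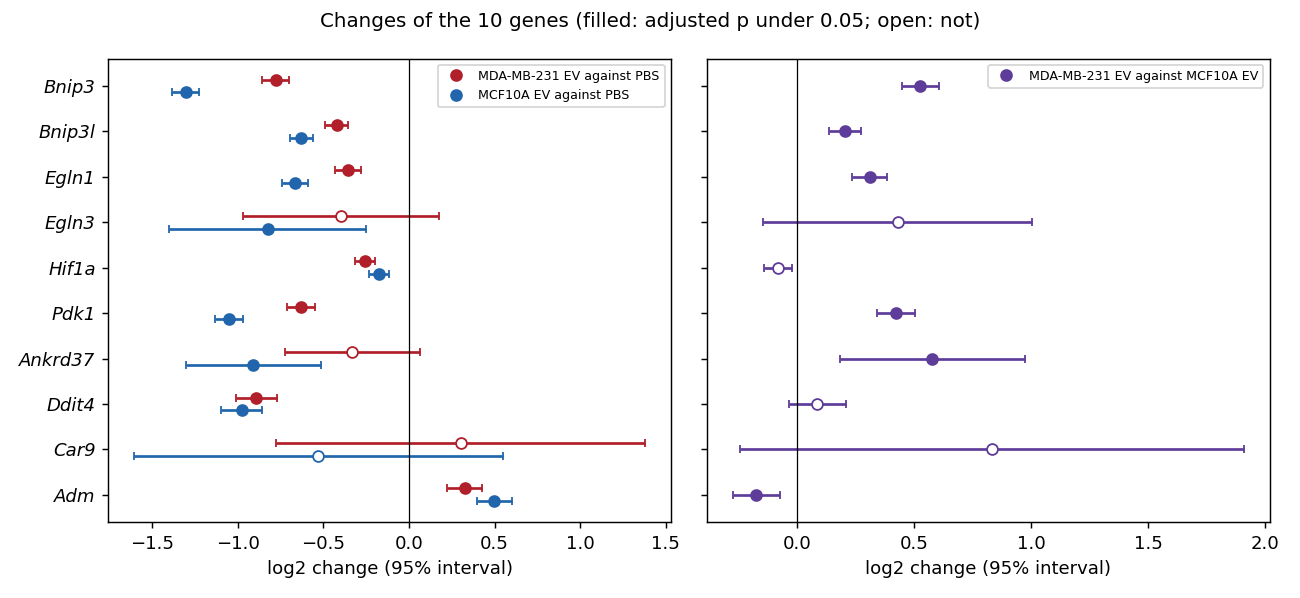
Log2 changes (x axis) of the 10 genes with 95% intervals, for each EV group against PBS on the left and for MDA-MB-231 EVs against MCF10A EVs on the right; filled points passed an adjusted p of 0.05 and open points did not. Bnip3 lies at -0.78 and -1.30 and Adm at 0.33 and 0.50 against PBS, and the intervals of Car9 cross 0 in all comparisons.

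Set against each other, the vesicles of the cancer line left 5 of the 10 transcripts higher than those of MCF10A did and 1 lower, beside 16.9% of all genes called (6.84% higher and 10.1% lower). Libraries of the 2 EV groups did not overlap for 8 of the 10, beside 56% of all genes. Higher with MDA-MB-231 EVs were Bnip3 by 0.53 ± 0.037 on the log2 scale, Pdk1 by 0.42 ± 0.038, Egln1 by 0.31 ± 0.035, Bnip3l by 0.21 ± 0.032 and Ankrd37 by 0.58 ± 0.18 (limma, adjusted p = 1.6e-07, 2.1e-06, 2.0e-05, 3.6e-04 and 0.0444). For the first 4 and for Ankrd37 the libraries of the groups did not overlap, with every MDA-MB-231 EV library between the MCF10A EV and PBS libraries. Adm was lower, with a log2 difference of -0.17 ± 0.047 (limma, adjusted p = 0.0201), so it too lay nearer to PBS. Hif1a did not pass the test, with a log2 difference of -0.08 (95% interval -0.14 to -0.02, limma, adjusted p = 0.0537), and Ddit4 differed by 0.09 (95% interval -0.04 to 0.21, limma, adjusted p = 0.358). Egln3 and Car9 did not pass the test, with intervals of -0.14 to 1.00 and -0.25 to 1.91.

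The calls of Ankrd37 and Adm in this last comparison were not stable. Leaving out any 1 of the 6 libraries ended the Ankrd37 call, at log2 values of 0.48 to 0.67, and leaving out MDA-MB-231 EV replicate 2, MCF10A EV replicate 1 or MCF10A EV replicate 2 ended that of Adm, at -0.15, -0.20 and -0.15. Limma without the trend of variance on level called 2 of the 10 genes (Bnip3 and Pdk1) and 378 of all genes in place of 2541, and scaling by library totals also ended the Adm call (log2 -0.13).

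Per kilobase of exon, which allows levels of different genes to be compared, Hif1a led with 2182 normalised reads with MDA-MB-231 EVs, followed by Bnip3 with 1591, Adm with 1516, Bnip3l with 1075, Egln1 with 908, Pdk1 with 529 and Ddit4 with 412. With MCF10A EVs the order was Hif1a with 2310, Adm with 1710.2, Bnip3 with 1105, Bnip3l with 932, Egln1 with 733, Pdk1 with 395 and Ddit4 with 388. PBS libraries put Bnip3 first with 2730.2, then Hif1a with 2605, Bnip3l with 1440.2, Adm with 1211, Egln1 with 1162, Pdk1 with 817 and Ddit4 with 763. Ankrd37, Egln3 and Car9 came last in all 3 groups: Ankrd37 at 73.99, 49.1 and 93.1 normalised reads per kilobase with MDA-MB-231 EVs, MCF10A EVs and PBS, Egln3 at 13.3, 9.89 and 17.8, and Car9 at 5.43, 2.74 and 3.95. Neighbours whose libraries overlapped were Pdk1 and Ddit4 with MCF10A EVs and Adm and Egln1 with PBS.

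The genes whose pattern over the 6 libraries was most like that of Bnip3 were Saa1, Pdk1, Saa3, Unc13a and Prelp. Predicted genes (Gm and a number) and symbols ending in Rik were left out of the naming, here and for Adm. Likeness was the root mean square difference of log2 levels after centring each gene on its own mean, over 10104 genes, and was 0.10 for Saa1, 0.12 for Pdk1 and 0.16 for Prelp. Saa1 and Saa3 encode acute-phase serum amyloid A proteins. Of the 10 genes, Pdk1 had the pattern nearest to Bnip3 among those averaging 5 CPM or more. Egln3, Ankrd37 and Car9 lay below that level and were not compared. Those most like Adm were Tmem177, Rrn3, Urb1, Ddx18 and Wdr55, at 0.02 to 0.03. Rrn3 encodes a factor of RNA polymerase I and Urb1 and Ddx18 encode ribosome biogenesis factors, and Rrn3 stood at 2503, 2790 and 1991 normalised reads with MDA-MB-231 EVs, MCF10A EVs and PBS.

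Other HIF targets mostly fell too. Of 31 tested targets outside the 10 genes, 22 fell and 3 rose with MDA-MB-231 EVs, and 24 fell and 4 rose with MCF10A EVs (80.6% and 90.3% called, beside 34.8% and 31.7% of all genes), with median log2 changes of -0.39 and -0.46. Vegfa, the angiogenic growth factor, had 5638 and 5590 normalised reads with MDA-MB-231 EVs, 6625 and 6587 with MCF10A EVs, and 14863 and 14998 with PBS. Fam162a, a mitochondrial protein gene, stood at 3477 ± 244 with MDA-MB-231 EVs, 3918 ± 35.4 with MCF10A EVs and 7183 ± 0.19 with PBS. Ero1l, an oxidase of protein folding, stood at 3786 ± 119 with MDA-MB-231 EVs, 4287 ± 56.3 with MCF10A EVs and 7726 ± 162 with PBS. Slc2a1, which encodes the main glucose transporter of fibroblasts, fell by 0.38 with MDA-MB-231 EVs and by 0.46 with MCF10A EVs on the log2 scale. P4ha1, a collagen prolyl hydroxylase gene, fell by 0.52 with MDA-MB-231 EVs and by 0.48 with MCF10A EVs. Pfkfb4, a regulator of glycolysis, fell by 0.49 with MDA-MB-231 EVs and by 0.82 with MCF10A EVs. The Pfkfb4 call with MDA-MB-231 EVs was lost without PBS replicate 2 (log2 -0.43) and by limma without the trend.

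Not all targets took the same order of the EV groups as Bnip3. Between MDA-MB-231 EVs and MCF10A EVs, 6 of the 31 were higher (Plod2, Kdm3a, Kdm4b, Mxi1, Lox and Ak4) and 6 were lower, among them Vegfa, Ero1l, Fam162a, Tfrc and Hmox1. The share called was 38.7%, beside 16.9% of all genes (6.84% higher and 10.1% lower). Limma without the trend of variance on level called 4 of the 31, 3 higher and 1 lower. Scaled by library totals, 13 were higher and 6 lower. Mxi1, whose product opposes MYC, had the order of Bnip3, at 1802 ± 23.8 with MDA-MB-231 EVs, 1401 ± 8.98 with MCF10A EVs and 2566 ± 27.2 with PBS. Vegfa was lower with MDA-MB-231 EVs than with MCF10A EVs, with a log2 difference of -0.23 ± 0.027 (limma, adjusted p = 2.4e-05). Lox, which encodes a collagen cross-linking oxidase, rose by 0.30 with MDA-MB-231 EVs and fell by 0.41 with MCF10A EVs. Leaving out MDA-MB-231 EV replicate 2 ended the lower call of Fam162a, at -0.10, as did leaving out MCF10A EV replicate 1 or 2, at -0.18 and -0.16.

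**Figure D3:**
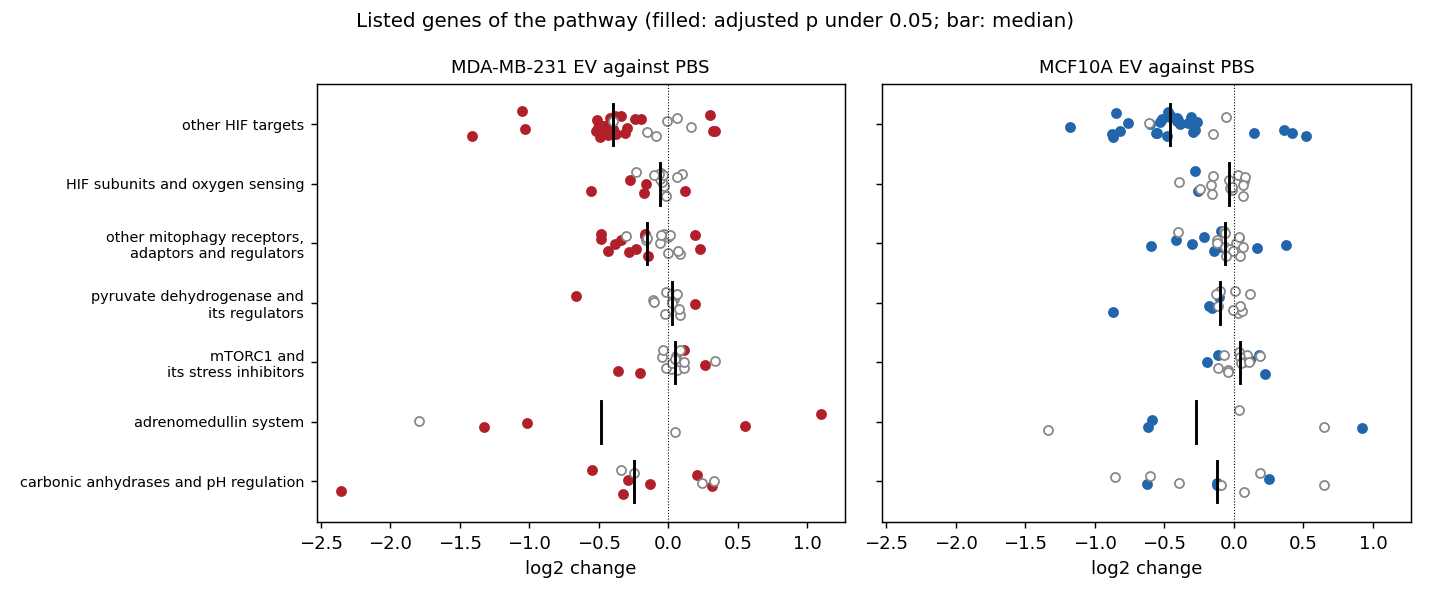
Log2 changes (x axis) of the tested genes of 7 related lists (y axis) for each EV group against PBS, where each point is a gene, filled at an adjusted p under 0.05, and bars are list medians. The other HIF targets centre on -0.39 with MDA-MB-231 EVs and -0.46 with MCF10A EVs. In the same order, the adrenomedullin list (6 genes) centres on -0.48 and -0.27, and carbonic anhydrases and pH regulators on -0.24 and -0.12. The remaining mitophagy genes centre on -0.15 and -0.06, and the lists of HIF subunits, pyruvate dehydrogenase and mTORC1 between -0.10 and 0.05.

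Of 16 tested genes that form or control HIF, 4 fell and 1 rose with MDA-MB-231 EVs (31.2%, beside 34.8% of all genes) and 2 fell with MCF10A EVs (12.5%, beside 31.7% of all genes), with medians of -0.06 and -0.03. Scaled by library totals, 1 fell and 2 rose with MDA-MB-231 EVs. Cited2, which encodes a HIF-induced competitor for the coactivator p300, stood at 6059 ± 272 with MDA-MB-231 EVs, 7432 ± 194 with MCF10A EVs and 8893 ± 18.7 with PBS, and fell in both. Arnt, the partner subunit gene, stood at 2442 ± 86.0 with MDA-MB-231 EVs, 2263 ± 31.2 with MCF10A EVs and 2749 ± 107 with PBS, and fell by 0.28 with MCF10A EVs. Its fall by 0.17 with MDA-MB-231 EVs was lost without PBS replicate 1 (log2 -0.13) and when reads were scaled by library totals. Vhl did not pass the test in either comparison, with log2 changes of -0.04 and -0.15. Siah2, whose product marks EGLN proteins for degradation, stood at 423 ± 48.8 with MDA-MB-231 EVs, 506 ± 32.7 with MCF10A EVs and 510.4 ± 37.0 with PBS. Its fall by 0.27 with MDA-MB-231 EVs was lost without MDA-MB-231 EV replicate 2 (log2 -0.15) or PBS replicate 1 (log2 -0.20), with DESeq2 and when reads were scaled by library totals. The number called with MDA-MB-231 EVs was 2 without PBS replicate 1 and 3 without MDA-MB-231 EV replicate 2.

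Of 23 tested genes among the remaining mitophagy receptors, adaptors and regulators, 10 fell and 2 rose with MDA-MB-231 EVs (52.2%, beside 34.8% of all genes). With MCF10A EVs 7 fell and 2 rose (39.1%, near the 31.7% of all genes). The median log2 change was -0.15 with MDA-MB-231 EVs and -0.06 with MCF10A EVs. Scaled by library totals, 9 fell and 4 rose with MDA-MB-231 EVs. Pink1, which encodes a kinase that marks damaged mitochondria, stood at 615 ± 5.39 with MDA-MB-231 EVs, 570.1 ± 21.2 with MCF10A EVs and 861 ± 16.8 with PBS. Map1lc3a, an LC3 gene, stood at 817 ± 38.3 with MDA-MB-231 EVs, 855 ± 66.9 with MCF10A EVs and 1142 ± 10.2 with PBS, and both genes fell in both comparisons. Phb2 and Pgam5 were the 2 that rose with each kind of vesicle. Fundc1, a hypoxia-linked mitophagy receptor of another family, did not pass the test, with log2 changes of -0.06 and -0.12. Sqstm1, the autophagy adaptor p62, was lower with MDA-MB-231 EVs than with MCF10A EVs, with a log2 difference of -0.29 ± 0.027 (limma, adjusted p = 2.6e-06). Pptc7, a mitochondrial phosphatase gene whose product keeps BNIP3 and NIX protein low, stood at 1575 ± 42.4 with MDA-MB-231 EVs, 1908 ± 43.2 with MCF10A EVs and 1994 ± 47.5 with PBS, and fell by 0.34 with MDA-MB-231 EVs.

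The receptor of adrenomedullin is the product of Calcrl joined to an accessory protein of the RAMP family, and Ackr3 encodes a receptor that can take up the peptide. Calcrl stood at 216 ± 24.6 with MDA-MB-231 EVs, 279 ± 16.8 with MCF10A EVs and 147 ± 22.7 with PBS and rose in both, although with MDA-MB-231 EVs the call was lost without PBS replicate 2 (log2 0.40). Ramp3 had 1564 and 1450.3 normalised reads with MDA-MB-231 EVs, 2442 and 2474 with MCF10A EVs, and 3821 and 3733 with PBS, without overlap. It fell by 1.33 with MDA-MB-231 EVs and by 0.62 with MCF10A EVs, and was lower with MDA-MB-231 EVs than with MCF10A EVs, with a log2 difference of -0.71 ± 0.040 (limma, adjusted p = 1.4e-08). Ackr3 fell by 1.01 with MDA-MB-231 EVs and by 0.59 with MCF10A EVs. Ramp2, at 17.3 and 26.5 with MDA-MB-231 EVs and 8.73 and 10.3 with PBS, rose with MDA-MB-231 EVs, a call lost without MDA-MB-231 EV replicate 2 or either PBS replicate. In all, 2 of 6 tested genes of this list rose and 2 fell with MDA-MB-231 EVs, and 1 rose and 2 fell with MCF10A EVs. These shares of 66.7% and 50%, beside 34.8% and 31.7% of all genes, come from a list too short for them to be read.

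In the list of pyruvate dehydrogenase and its regulators 1 of 13 tested genes rose and 1 fell with MDA-MB-231 EVs (15.4%, beside 34.8% of all genes), and 4 fell with MCF10A EVs (30.8%, near the 31.7% of all genes). The total with MDA-MB-231 EVs was 1 without any library other than MDA-MB-231 EV replicate 1, and 5 when scaled by library totals (4 higher). The total with MCF10A EVs was 1 without MCF10A EV replicate 2 and 2 without either PBS replicate. The rise of Pdpr with MDA-MB-231 EVs was lost without each of the 6 libraries in turn. Mpc1, a subunit gene of the mitochondrial pyruvate carrier, and Pdp1, a phosphatase that reverses the action of the kinases, stood at 912 ± 6.44 and 828 ± 18.3 with MDA-MB-231 EVs, 770.4 ± 69.5 and 699.6 ± 23.5 with MCF10A EVs, and 872 ± 0.20 and 779 ± 4.50 with PBS. Of 16 tested mTORC1 genes, 2 rose and 2 fell with MDA-MB-231 EVs and 3 rose and 2 fell with MCF10A EVs, shares of 25% and 31.2% that lie below and near those of all genes. The total with MCF10A EVs was 1 without MCF10A EV replicate 1 or PBS replicate 2 and 3 without MCF10A EV replicate 2 or PBS replicate 1, and that with MDA-MB-231 EVs was 7 (5 higher) when scaled by library totals. Sesn2, another stress-induced mTORC1 inhibitor, stood at 610.5 ± 2.74 with MDA-MB-231 EVs, 843 ± 0.14 with MCF10A EVs and 784 ± 27.8 with PBS, and fell with MDA-MB-231 EVs. Tsc1, a subunit of the complex through which REDD1 acts, stood at 1502 ± 85.4 with MDA-MB-231 EVs, 1335 ± 22.2 with MCF10A EVs and 1250.4 ± 2.24 with PBS, and rose with MDA-MB-231 EVs.

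Among 11 tested carbonic anhydrases and pH regulators, 2 rose and 5 fell with MDA-MB-231 EVs and 1 rose and 3 fell with MCF10A EVs, a total that was 2 without MCF10A EV replicate 2. The shares called were 63.6% and 36.4%, beside 34.8% and 31.7% of all genes, with the second near its share of all genes. Scaled by library totals, 2 rose and 1 fell with MCF10A EVs. Car12, the other membrane carbonic anhydrase tied to hypoxia, had 0 reads in every library. Car5b, a mitochondrial carbonic anhydrase gene, stood at 278 ± 28.3 with MDA-MB-231 EVs, 263 ± 11.3 with MCF10A EVs and 407 ± 20.01 with PBS and fell in both. Car6, which encodes a secreted form, fell to 6.08 and 3.25 normalised reads with MDA-MB-231 EVs, against 30.3 and 24.2 with PBS, and stood at 13.0 and 16.2 with MCF10A EVs.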

How the data were processed

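The deposited table holds 20475 mouse genes in 6 libraries. Per the submitters' processing notes TopHat2 and edgeR were run, with the human build hg19 named, so the mouse build is unknown and genes are located by chromosome. For the read counter, the strand setting and all versions the entry is: not given in the sources used here. TRIzol extraction came before a stranded mRNA kit, per the labels. The deposited values are a normalised read signal, recognised here as edgeR's quantile-adjusted pseudo-counts: inverting that adjustment returned whole reads for all 122850 values, 100.0%, within a relative 1e-06, with a common dispersion of 0.000591, and edgeR's own function returned the deposited values to within a relative 1.07e-07. The adjustment uses the group labels.

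The main test was limma 3.58.1 (lmFit, eBayes with trend) in R 4.3.3 on log2(value + 1) for 15025 genes (2 or more libraries with a normalised read of 1 or more), a mean per group over all 6 libraries, 3 residual and 11.5 prior degrees of freedom. On the recovered reads edgeR 4.0.16 (quasi-likelihood, TMM) called 5554 genes with MDA-MB-231 EVs and 5160 with MCF10A EVs, each set against PBS, and 2987 between the EV groups, and limma 5231, 4764 and 2541. DESeq2 1.42.0, other scalings, filters and pseudocounts, a replicate block and leaving out each library were also run. The 10 genes, the 7 lists (131 entries, 130 found) and the tests were chosen with earlier results of these data known. Listed genes were named where called with a log2 change of at least 0.5, up to 5 a list and comparison, or else the 2 largest, with Vegfa and Slc2a1 always; Egln2, Hif1an, Vhl, Fundc1, Phb2, Pgam5, Pdk3, Pdk4, Car12, the markers at 0 and the targets listed by name for a count were added after their values were seen. GENCODE M21 gave exon lengths, and RefSeq GRCm38.p6 the promoters.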

Additional observations from a re-analysis of the deposited data

Results flagged for a closer look

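For 6 of the 10 genes the effect of MDA-MB-231 EVs differed from that of MCF10A EVs by the test of the difference itself (limma, adjusted p under 0.05). Beside this, 16.9% of all genes were called in that comparison. The calls of Ankrd37 and Adm were not stable when single libraries were left out. The log2 difference, the MDA-MB-231 EV effect minus the MCF10A EV effect, was 0.53 for Bnip3, 0.21 for Bnip3l, 0.31 for Egln1, 0.42 for Pdk1, 0.58 for Ankrd37 and -0.17 for Adm. In all 6 the MDA-MB-231 EV libraries lay between the MCF10A EV libraries and the PBS libraries. The share of all genes with that order was not counted.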

How the results depend on the processing

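Across 20 alternatives, 7 of the 10 genes were called for MDA-MB-231 EVs every time, and 7 to 9 for MCF10A EVs, both set against PBS, where the lowest counts came without the trend and with a filter of 5 CPM, which drops Egln3, Ankrd37 and Car9. For MDA-MB-231 against MCF10A EVs 2 to 7 were called. Limma without trend called 3346, 2231 and 378 genes (MDA-MB-231 EVs, MCF10A EVs, and between them) and 2 of the 10 genes in the last comparison, where DESeq2 called 1514 genes; the cause was not tested. In the same order, leaving out 1 library gave 4018 to 5056, 3370.0 to 4897 and 1425 to 2257 genes (1646 without MDA-MB-231 EV replicate 2, 1425 and 1668 without MCF10A EV replicate 1 and 2), and 7, 8 to 9 and 4 to 6 of the 10 genes. The log2 change of Car9 with MDA-MB-231 EVs was 0.92 without MDA-MB-231 EV replicate 1 and turned to -0.32 without replicate 2 of that group. The fall of Hif1a with MCF10A EVs was not called without trend (adjusted p = 0.0528), and in the last comparison Hif1a was called lower by edgeR and 4 other alternatives. Libraries that share a replicate number did not deviate together (r = 0.03, 0.02 and -0.01 over 10104 genes), and the replicate block called 5187, 4746 and 2560.0 genes and 7, 9 and 6 of the 10, losing Ankrd37 (adjusted p = 0.0525) and adding Hif1a (adjusted p = 0.0390) in the last comparison. Of 420 recomputed list counts 353 stayed within 1.5 times. With 2 libraries a group and 3 to 59 reads in a library, Egln3 and Car9 are limited by depth.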
